A study of Rattus norvegicus with 24 samples.

Results

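Cytochrome P450 enzymes of families 1 to 4, the enzymes that oxidise drugs, steroids, fatty acids and other small molecules, were examined across tissues and ages of the male rat. The members were the probe sets of the array whose only gene symbol begins with Cyp1, Cyp2, Cyp3 or Cyp4 and then a letter. Cyp2c11 and Cyp2c12 were not included, and 3 probe sets that carry several symbols of these families were left out. This gave 38 of the 10411 named genes of the array, measured by 41 of the 15866 probe sets that are not controls. Family 1 had 3 probe sets, family 2 had 22 probe sets of 21 genes, family 3 had 4 and family 4 had 12 probe sets of 10 genes. Cyp2d4, Cyp4a8 and Cyp4v3 were each measured by several probe sets.

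RNA came from liver, kidney, bone, hypothalamus, pituitary and spleen lymphocyte of Sprague Dawley rats aged 4, 10, 18 and 24 months. All animals were male and no agent or altered allele is named for any group. Each of the 24 groups was 1 Affymetrix RAE230A array of RNA mixed in equal parts from 10 rats, and all tissues of 1 age were taken from the same animals. The spread between single rats was therefore not measured, and the tissues of an age were not independent of each other. Values are signals computed by MAS5.0 per probe set, linear intensities scaled to the same target on every array.

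The marker list of each tissue had a higher summed signal on the arrays of that tissue than on any other array. All 28 measured hepatocyte markers reached a signal of 100 on every liver array, 17 of 18 proximal tubule markers on each kidney array, and all 12 lymphocyte markers, 10 pituitary markers and 9 bone markers did so on every array of spleen lymphocyte, pituitary and bone. In hypothalamus 12 to 13 of the 13 neuron markers did so. Such counts alone do not mark a tissue, since 67.8% to 77% of all probe sets reached 100 on an array. Of the 28 hepatocyte markers, 13 to 23 did so in hypothalamus and 16 to 21 in kidney. Their summed signal was 679509 to 753916 on liver arrays and at most 33114 on any other. Not every marker was high in its tissue, as with Fgb at 154 to 223 in liver and 83.1 to 154 in hypothalamus. The median signal of an array ran from 213 to 309, and the highest belonged to bone at 18 months, whose 5th percentile of signal, 33.5, was the highest of all arrays, while kidney at 18 months had the lowest 5th percentile, 9.14, and the lowest share of probe sets at 100 or more, 67.8%. The array number limits the precision of every value below. In mixed tissue, fewer cells of a type and less RNA per cell cannot be told apart.

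P450 enzymes are heme proteins of the endoplasmic reticulum that insert an oxygen atom into their substrates with electrons from P450 reductase. Families 1, 2 and 3 clear most drugs and foreign chemicals and hydroxylate steroids, chiefly in hepatocytes, and their genes respond to the dioxin receptor (family 1), to the receptors CAR and PXR (much of families 2 and 3) and, for fatty acid hydroxylases of family 4, to PPARα. In the rat liver several forms differ between males and females because they follow the sex-specific pattern of growth hormone release. In the kidney, fatty acid hydroxylases and epoxygenases make products of arachidonic acid that act on blood vessels and salt transport.

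The first comparison asked where the members were expressed. Liver held most of them. The members with a signal of at least 100 on all 4 arrays of a tissue numbered 37 of 41 in liver, 19 in kidney, 15 in pituitary, 13 in spleen lymphocyte, 11 in hypothalamus and 8 in bone. Over all probe sets the share ran from 60.0% in spleen lymphocyte to 67.4% in pituitary, with 60.6% in liver. Cyp4f17 reached 100 on no array, with a highest signal of 58.8, and 6 members reached it on all 24.

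**Figure D1:**
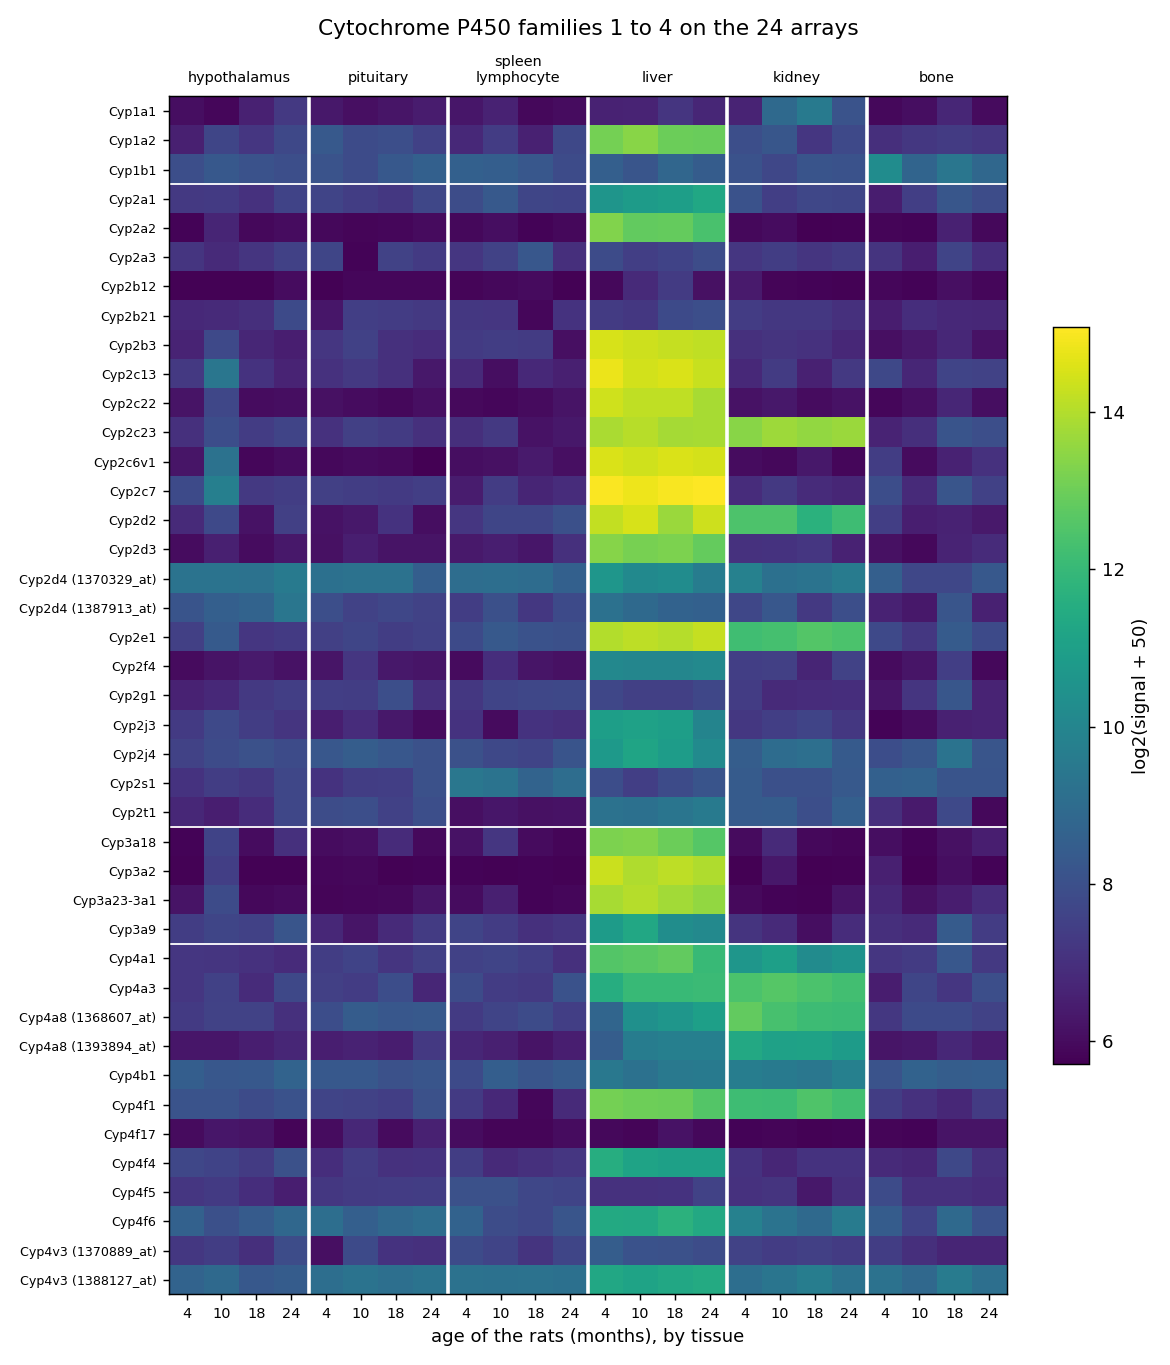
Signals of the 41 members on the 24 arrays as log2(signal + 50), with a row per probe set and a column per tissue and age in months. Rows are to be read along their length, since the levels of different probe sets are not comparable. The bright block is liver, a smaller group of rows is bright in kidney, and the 10-month hypothalamus array stands out within its tissue for Cyp2c7, Cyp2c13 and Cyp2c6v1.

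In a limma fit of log2(signal + 50) over all 24 arrays and all 15866 probe sets, with tissue and age as factors, 31 of the 41 members were higher in liver than in the mean of hypothalamus, pituitary, spleen lymphocyte and bone, at a Benjamini-Hochberg adjusted p under 0.05 and a difference of at least 1. Of all probe sets 8.63% were called in that direction. Only the higher direction was called by this rule. The lowest member difference was -0.25, for Cyp2s1. The median difference of the members was 3.38 on the log2 scale, against -0.15 over all probe sets. In kidney 11 of the 41 were called higher than the same 4 tissues, against 9.04% of all probe sets. The median member difference there was 0.21 and the lowest was -0.58, for Cyp3a9. The liver and the kidney comparison share these 4 reference tissues.

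In family 3 every member was called in liver. Cyp3a2, a testosterone hydroxylase of the adult male rat, had signals of 20334, 16061, 18047 and 16036 in liver at 4, 10, 18 and 24 months and at most 124 on any other array. The difference was 8.14 (SE 0.21, limma adjusted p = 9.6e-18). The steroid-inducible Cyp3a23-3a1 had a liver mean of 14385 ± 1875 (SD, n = 4 arrays, 1 of each age) and a kidney mean of 11.8 ± 9.20. Cyp3a18 and Cyp3a9 differed by 6.71 (SE 0.25) and 3.35 (SE 0.26), so that every family 3 gene was at least 3.35 above the other tissues. The reference signals of Cyp3a2, Cyp3a18 and Cyp3a23-3a1 lay mostly under 100, where the added 50 largely sets the level, so the size of their differences depends on that constant and gives no order. In family 1 only Cyp1a2, which oxidises caffeine and aromatic amines, was called in liver, where it read 8881, 10907, 7942 and 7775, by 5.73 (SE 0.20). Cyp1a1 read 48.7 to 91.9 in liver and was not called there.

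The Cyp2c members divided by kidney. Cyp2c7, which hydroxylates retinoic acid and steroids, read 33323, 29102, 32354 and 34418 in liver and at most 105 in kidney. Cyp2c13, Cyp2c22 and Cyp2c6v1 likewise had liver means of 23560 ± 3514, 18184 ± 2752 and 23026 ± 973 (SD, n = 4) with kidney means of 81.1 ± 32.1, 22.5 ± 5.92 and 15.9 ± 9.32. Cyp2c23, the main arachidonic acid epoxygenase of rat kidney, read 10874, 13261, 12095 and 12895 in kidney and 15231, 17221, 14444 and 14807 in liver. It was 6.70 (SE 0.22) above the reference tissues in liver and 6.37 (SE 0.22) above them in kidney. Liver and kidney differed by 0.33 (SE 0.28, limma adjusted p = 0.385), which missed the threshold.

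The other high liver members of family 2 were the ethanol-oxidising Cyp2e1, the debrisoquine hydroxylase Cyp2d2, Cyp2d3, Cyp2b3 and Cyp2a2. Cyp2b3 read 23010, 21130, 19582 and 18616 in liver and 59.6 to 88.1 in kidney. Cyp2e1 had a liver mean of 17594 ± 1417 and a kidney mean of 5309 ± 626, and Cyp2d2 a liver mean of 19016 ± 4323 and a kidney mean of 4774 ± 1106 (SD, n = 4). Both were called above the reference tissues in kidney too, by 4.64 (SE 0.18) and 5.24 (SE 0.25). Cyp2d3 and Cyp2a2 were not, with kidney means of 79.3 ± 22.2 and 8.37 ± 5.17. Smaller liver differences were called for Cyp2a1, Cyp2f4, Cyp2j3, Cyp2j4, Cyp2t1 and Cyp2d4, from 1.11 for a Cyp2d4 probe set to 4.01 for Cyp2j3. Cyp2t1 was called in kidney as well, by 1.41 (SE 0.23).

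In family 4 the fatty acid hydroxylases were high in both organs. Cyp4a1 read 6008, 6473, 7191 and 4100 in liver and 1542, 2020, 1167 and 1379 in kidney. Cyp4a3 read 2970, 4065, 4128 and 4314 in liver and 5412, 6264, 5414 and 4780 in kidney. Cyp4f1, which also hydroxylates arachidonic acid, had a liver mean of 7816 ± 1213 and a kidney mean of 4878 ± 576 (SD, n = 4). Against the reference tissues they were 5.17, 4.50 and 5.54 higher in liver and 3.24, 5.00 and 4.87 higher in kidney. Cyp4b1, known mainly from lung, was moderate throughout, with differences of 1.10 (SE 0.13) in liver, lost with a pseudocount of 100 (0.99), and 1.29 (SE 0.13) in kidney. Cyp4f4 and Cyp4f6 were called in liver, by 3.94 and 3.04.

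**Figure D2:**
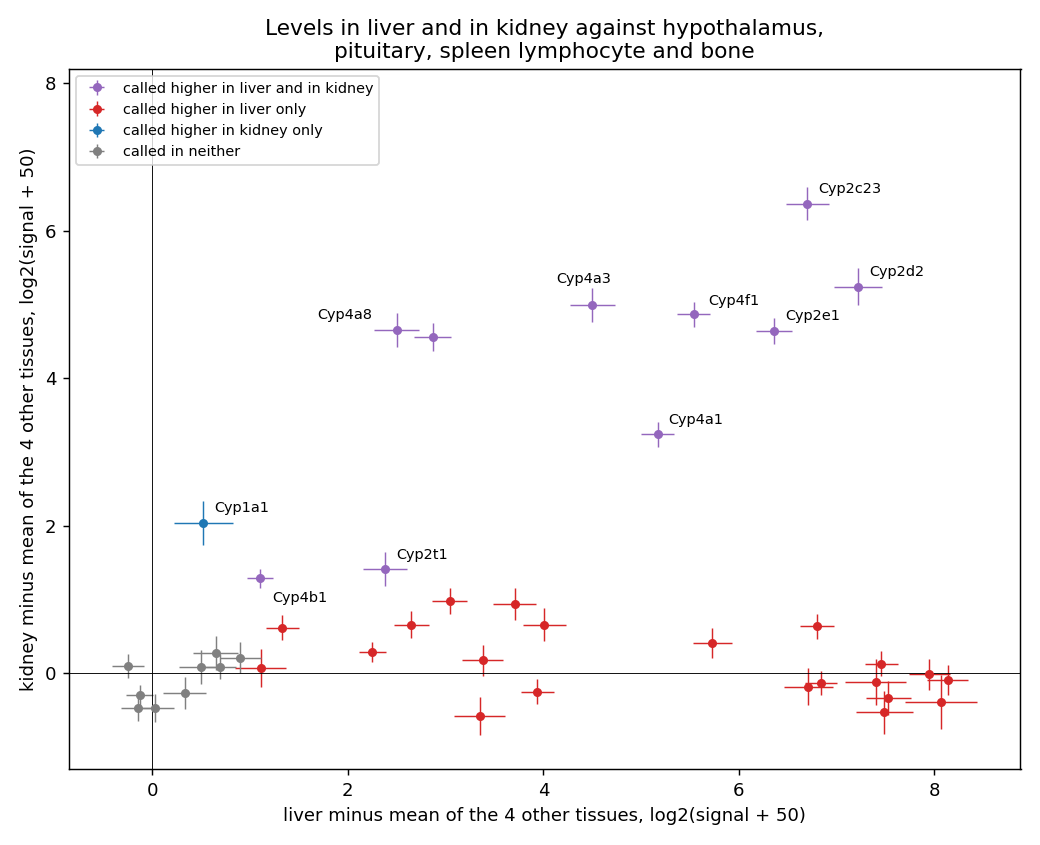
Each point is a probe set, placed by its liver difference (x axis) and its kidney difference (y axis) from the mean of the same 4 reference tissues on the log2(signal + 50) scale, with bars of 1 standard error from limma. The named genes were called higher in kidney, with Cyp2c23 highest at 6.37, and a group of liver members lies near 0 on the kidney axis.

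Liver and kidney were then compared directly. Of the members 23 were higher in liver, against 8.05% of all probe sets, and 3 were higher in kidney, against 10.9%. The 3 were Cyp1a1, with a difference of -1.52 (SE 0.38, limma adjusted p = 0.00285), and both probe sets of Cyp4a8, with -2.16 (SE 0.30) and -1.69 (SE 0.24). Cyp4a3 did not pass, at -0.50 (SE 0.28, limma adjusted p = 0.182). The difference was over 7 for Cyp2b3, Cyp2c13, Cyp2c22, Cyp2c6v1, Cyp2c7, Cyp3a2 and Cyp3a23-3a1, whose kidney means, 9.78 to 81.1, were below 100, so these values too depend on the added 50 and give no order. The smallest difference called, 1.04 (SE 0.33) for Cyp2d4 (1387913_at), was lost under 4 alternatives, such as a pseudocount of 100 (0.89). The other Cyp2d4 probe set, 1370329_at, was not called, at 0.71 (SE 0.21).

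The members called in neither liver nor kidney were of several kinds. Cyp1b1, an oestradiol hydroxylase found mostly outside the liver, read 1177, 380, 626 and 405 in bone, against 159 to 393 on all other arrays. Cyp2s1, an epithelial form, was highest in spleen lymphocyte, with 645, 568, 367 and 482. The bone values of Cyp2s1 were 332, 359, 232 and 237, and its liver values 194, 125, 182 and 231. Cyp2g1 and Cyp2a3, known from the olfactory mucosa, and Cyp2b12, Cyp2b21, Cyp4f5 and Cyp4f17 stayed at or below 258 on all 24 arrays.

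Genes measured by several probe sets gave like directions of the liver difference from the reference tissues, at different levels. Both Cyp4a8 probe sets were called in liver and in kidney. For Cyp2d4, a form known from the brain, 1370329_at read 570, 576, 564 and 711 in hypothalamus and 1536, 1096, 1183 and 754 in liver, while 1387913_at read 236, 324, 363 and 613 and 542, 431, 359 and 334. Both were called in liver, by 1.33 (SE 0.17) and 1.11 (SE 0.26), the second of which was lost under 3 alternatives, such as leaving out bone (0.84). Only 1388127_at of Cyp4v3 was called in liver, by 2.25 (SE 0.14), while 1370889_at was 0.90 higher (SE 0.21). Many members have close paralogues, and cross-hybridisation was not tested. The probe set of Cyp2c13 (ending in _s_at) and those of Cyp2c6v1 and Cyp2j3 (ending in _a_at) are of kinds that Affymetrix marks as matching several transcripts.

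Promoters are shown for 3 pairs of related members that carry the tissue contrast described above, namely a liver pair from family 3, a pair from family 4 called in liver and kidney, and Cyp2c22, at 22.5 in kidney, beside Cyp2c23, at 12281. They are the 250 bases before the transcription start in RefSeq (build GRCr8), written 5′ to 3′ along the gene. Capitals mark CAAAG, the core bound by the liver factor HNF4, and AGGTCA, bound by nuclear receptors, on either strand.
Cyp3a2 (chr12:14343858-14344107, minus strand): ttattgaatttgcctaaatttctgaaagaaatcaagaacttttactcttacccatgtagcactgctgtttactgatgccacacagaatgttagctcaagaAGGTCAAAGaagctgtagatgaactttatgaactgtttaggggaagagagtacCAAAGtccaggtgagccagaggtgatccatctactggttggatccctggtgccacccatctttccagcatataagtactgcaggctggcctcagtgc
Cyp3a23-3a1 (chr12:14398804-14399053, minus strand): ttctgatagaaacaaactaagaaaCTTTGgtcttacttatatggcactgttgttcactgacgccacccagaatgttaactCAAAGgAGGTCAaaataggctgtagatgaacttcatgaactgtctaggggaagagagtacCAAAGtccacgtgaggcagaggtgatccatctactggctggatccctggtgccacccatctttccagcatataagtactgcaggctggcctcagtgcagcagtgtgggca
Cyp4a3 (chr5:134352237-134352486, minus strand): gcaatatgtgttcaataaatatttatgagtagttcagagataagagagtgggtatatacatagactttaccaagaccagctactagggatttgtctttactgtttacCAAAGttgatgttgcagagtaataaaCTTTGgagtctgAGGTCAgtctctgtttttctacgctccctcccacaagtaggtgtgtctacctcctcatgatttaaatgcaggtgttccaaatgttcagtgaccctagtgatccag
Cyp4a8 (chr5:133970227-133970476, minus strand): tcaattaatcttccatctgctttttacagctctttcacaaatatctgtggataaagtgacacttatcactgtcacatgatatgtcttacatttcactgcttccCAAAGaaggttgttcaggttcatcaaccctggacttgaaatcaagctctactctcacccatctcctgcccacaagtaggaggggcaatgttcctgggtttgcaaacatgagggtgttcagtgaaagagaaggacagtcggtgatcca
Cyp2c22 (chr1:248980768-248981017, minus strand): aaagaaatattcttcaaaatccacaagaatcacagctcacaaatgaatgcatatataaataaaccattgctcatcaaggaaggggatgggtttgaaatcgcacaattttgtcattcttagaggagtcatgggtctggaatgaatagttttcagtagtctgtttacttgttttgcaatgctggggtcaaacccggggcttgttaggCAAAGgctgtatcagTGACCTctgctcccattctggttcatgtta
Cyp2c23 (chr1:252863068-252863317, minus strand): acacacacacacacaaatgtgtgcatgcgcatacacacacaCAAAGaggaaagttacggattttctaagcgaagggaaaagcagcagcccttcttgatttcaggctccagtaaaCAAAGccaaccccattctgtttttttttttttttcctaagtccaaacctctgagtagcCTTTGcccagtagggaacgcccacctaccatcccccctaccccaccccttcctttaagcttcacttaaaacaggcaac
In Cyp3a2 an AGGTCA starting 150 bases before the start runs into a CAAAG, so that the shared bases appear in 1 block of capitals, and in Cyp3a23-3a1 an AGGTCA starts 164 bases before it. The windows of this pair, with the 50 bases after the start included, matched at 254 of 315 aligned positions (80.6%), and those of Cyp4a3 and Cyp4a8 at 192 of 325 (59.1%). Cyp2c23 had 3 CAAAG matches and no AGGTCA.

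Windows of this kind, with 250 bases before and 50 after the start, were given for 31 of the 38 genes. CAAAG was found on either strand in 25 of the 31, against 53.8% of the 33469 windows of all genes. AGGTCA was found in 10 of the 31 against 16.2%, and the C/EBP core TTGCNNCAA or TTGCNNAA in 11 of the 31 against 12.5%. The STAT motif TTCNNNGAA was found in 4 of the 31 against 8.87%, and the dioxin receptor core GCGTG in 5 of the 31 against 29.7%. The direct repeat of AGGTCA with 1 base between, which contains AGGTCA itself, and the palindromic HNF1 site were found in 0 of the 31, against 0.0538% and 0.00299%. These are matches of letters and were not tested as binding sites.

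Many of the genes lie side by side. In the gene order of RefSeq, members with at most 24 other protein-coding genes between neighbours formed 13 runs. Of all 38 member genes 29 were called in liver and 10 in kidney, against 8.63% and 9.04% of all probe sets. A gene counted as called when any of its probe sets was, whereas these shares are per probe set, so the units differ. Cyp2c6v1, Cyp2c7, Cyp2c13 and Cyp2c22 formed a run in which 4 of 4 genes were called in liver and 0 in kidney. Cyp4a8, Cyp4a3, Cyp4a1 and Cyp4b1 formed a run in which 4 of 4 were called in each organ. The longest run, from Cyp2s1 to Cyp2t1, held 10 genes of the 2a, 2b, 2f, 2g, 2s and 2t subfamilies, of which 5 were called in liver and 1 in kidney.

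The next comparison asked how the members changed with age in liver. With 2 early arrays (4 and 10 months) against 2 late arrays (18 and 24 months), 0 of 41 members passed an adjusted p of 0.05 in limma, as did 0% of all probe sets. At an unadjusted p under 0.05, 2 members passed against 6.43% of all probe sets. A fit of 4 arrays leaves 2 residual degrees of freedom, and on simulated data it did not recover the changes put in, so a count of 0 does not show that the members did not change. The lowest adjusted p was that of Cyp3a9, 0.751, with a late minus early difference of -0.88 (SE 0.24). The median difference of the members was 0.00, against 0.06 over all probe sets. In kidney the same comparison called 0 of 41 and 0% of all probe sets, with 0 members and 6.25% of all probe sets at an unadjusted p under 0.05, and a median of -0.15 against -0.05. The late minus early difference was not called to differ between liver and kidney for any member (0 of 41, and 0% of all probe sets, with 2 members and 8.75% at an unadjusted p under 0.05). Across all 6 tissues, 24 against 4 months called 0 members and 0.0189% of all probe sets, with 1 member and 5.74% at an unadjusted p under 0.05.

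Single steps between ages rest on 1 array each and have no test. They are given as 2-fold changes where both arrays read 100 or more, which 37 members reached in each liver step. From 4 to 10 months 2 of the 37 passed, both probe sets of Cyp4a8, against 3.05% of all probe sets. From 10 to 18 months 1 of the 37 passed, against 3.19%, and from 18 to 24 months 1 of the 37, against 3.88%. Between 4 and 24 months 4 of the 37 passed, 2 in each direction, against 5.36% of all probe sets. In kidney 0 of 21 did, against 1.05%.

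The Cyp4a8 change in liver was the largest of these. Cyp4a8, in the same gene run as Cyp4a3, belongs to the ω-hydroxylases that act on fatty acids and is known as an androgen-responsive kidney form. With 1368607_at the liver signal was 382, 1303, 1519 and 1992 at 4, 10, 18 and 24 months, and the kidney signal 7144, 5203, 4407 and 4369. With 1393894_at the liver signal was 307, 743, 811 and 811 and the kidney signal 2587, 2079, 2173 and 1791. In liver the lowest array was the 4-month one and in kidney it was the highest, with each probe set. The log2 change from 4 to 24 months was 2.38 and 1.40 in liver and -0.71 and -0.53 in kidney. The difference between the organs in the late minus early change was 1.70 (SE 0.67, limma adjusted p = 0.557) and 0.92 (SE 0.50, adjusted p = 0.621), which missed the threshold.

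**Figure D3:**
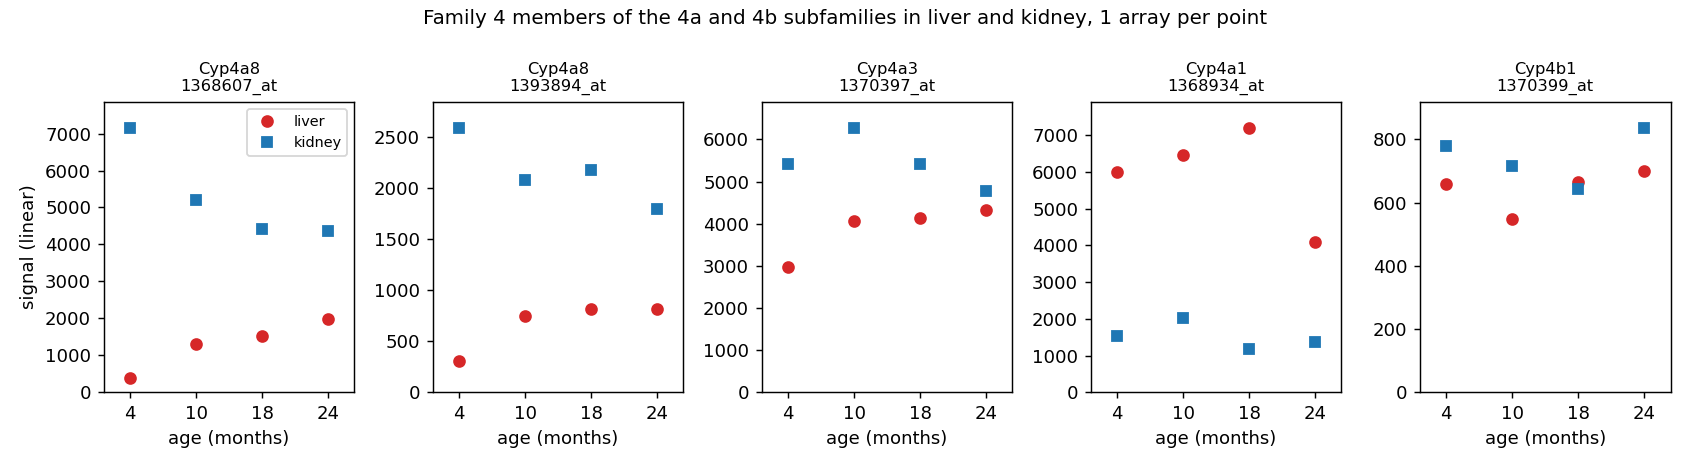
Linear signal (y axis, from 0, on a scale of its own in each panel) against age in months for Cyp4a8 (2 probe sets), Cyp4a3, Cyp4a1 and Cyp4b1 in liver and kidney, with 1 array per point and no error bars. Liver Cyp4a8 was lowest at 4 months (382 and 307) where kidney Cyp4a8 was highest (7144 and 2587).

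Its neighbours moved less. Cyp4a3 in liver was 2970 at 4 months and 4314 at 24 months, a log2 change of 0.54, and Cyp4a1 ended at 4100 after 7191 at 18 months, a step of -0.81. Cyp4a8 (1368607_at), Cyp4a3 and Cyp2a1 were the 3 members of 37 that were higher at each later age in liver, against 6.75% of all probe sets. Members lower at each later age numbered 5 of 37, against 4.96%. These were Cyp2b3, Cyp2d4 (1387913_at), Cyp4f1, Cyp4f4 and Cyp4v3 (1370889_at), with log2 changes from 4 to 24 months between -0.31 for Cyp2b3 and -0.70 for Cyp2d4. The Cyp4v3 probe set called in liver, 1388127_at, did not fall this way and read 2537, 2191, 2492 and 2716. Without a fold limit, 23 of 37 members were lower at 24 than at 4 months in liver, against 45.6% of all probe sets.

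The other 2-fold steps in liver were downward and late. Cyp3a9 read 1801, 2498, 1213 and 1054, a log2 change of -1.04 from 10 to 18 months. Cyp2j3, an arachidonic acid epoxygenase, read 1969, 2081 and 1931 up to 18 months and 937 at 24 months, also a change of -1.04. After quantile normalization these steps were -0.81 and -0.93 and no longer reached 2-fold. The related Cyp2j4 read 1649, 2268, 1866 and 1124, and its last step did not reach 2-fold. Between 4 and 24 months Cyp2d4 (1370329_at) fell 2-fold as well, from 1536 to 754.

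Forms known to differ between the sexes of the rat were set side by side after their values had been seen, so they are a description only. The male-predominant Cyp2a2 read 10133, 7142, 7396 and 5250 in liver, Cyp2c22 read 21436, 18269, 18328 and 14704, and Cyp2c13 read 28291, 22057, 23843 and 20050. Cyp3a18 read 9440, 10082, 7966 and 6256. Each of these, and Cyp3a2, was lowest at 24 months. The log2 changes from 4 to 24 months were -0.95, -0.54, -0.50, -0.59 and -0.34 in that order, none of them 2-fold. Cyp3a2 read 16036 at 24 months and 16061 at 10 months. The 24-month array was also lowest in liver for Cyp1a2, Cyp2b3, Cyp2d3 and Cyp3a9, among others, so this was not particular to male-predominant forms. Cyp2d3 changed by -0.53. Of 37 members 23 were lower at 24 than at 4 months, against 45.6% of all probe sets. Of the female-predominant forms, Cyp2a1 read 1486, 1812, 1949 and 2483, a change of 0.74, Cyp2c7 changed by 0.05 and Cyp3a9 by -0.77. The female-predominant forms thus had no common direction.

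**Figure D4:**
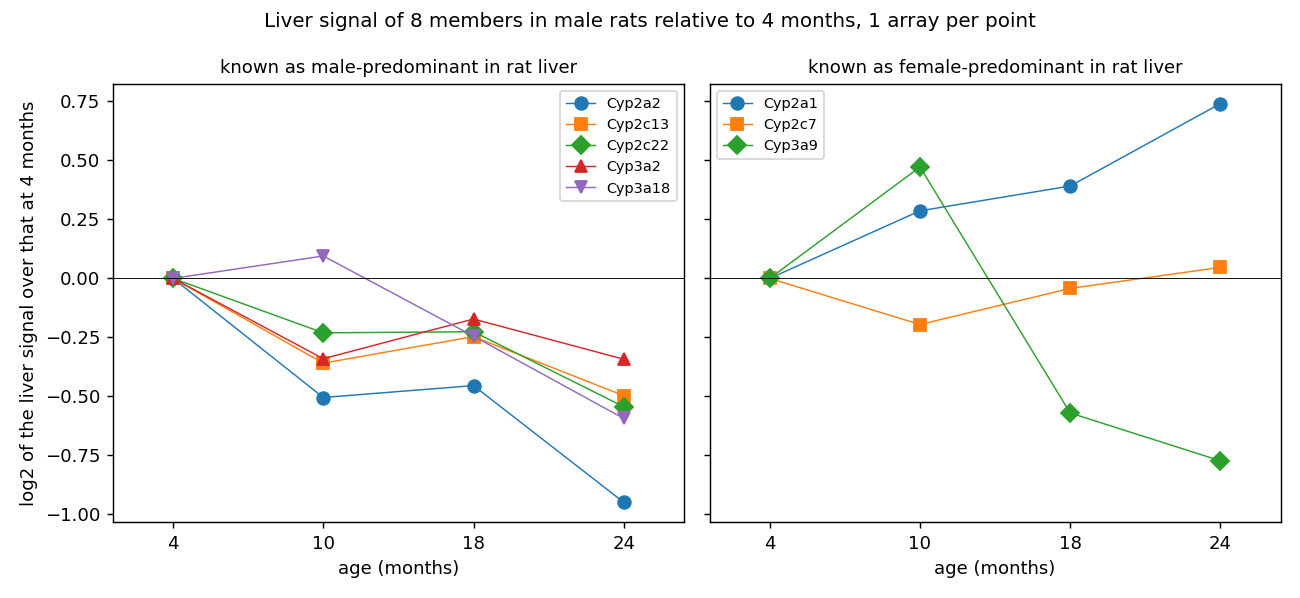
Log2 of the liver signal over that at 4 months (y axis) against age in months, for 5 members known as male-predominant (left) and 3 known as female-predominant (right) in rat liver, with 1 array per point and no error bars. The male-predominant forms end between -0.34 and -0.95, and the others between -0.77 and 0.74.

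In kidney, 2-fold steps were few. From 4 to 10 months 0 of 22 members passed, against 1.40% of all probe sets, from 10 to 18 months 1 of 22, against 5.59%, and from 18 to 24 months 1 of 21, against 3.45%. Cyp1a1, the inducible hydroxylase of polycyclic hydrocarbons and a classic target of the dioxin receptor, read 50.3, 427, 716 and 227 in kidney, a log2 change of -1.66 at the last step. Its first step is not counted because 50.3 lies under the floor of 100. On the other tissues' arrays Cyp1a1 was at most 105, so that the kidney arrays at 10, 18 and 24 months were above all of those. Cyp1a2, the liver form of the same family, read 199, 249, 96.2 and 169 in kidney. Cyp2d4 (1387913_at) went from 258 to 103 between 10 and 18 months, and its other probe set from 526 to 570. Both counted steps use the 18-month kidney array, the lowest of 24 in its share of probe sets at 100 or more (67.8%). Without it only the step from 4 to 10 months remains, with 0 of 22, so that count says nothing about the array. On it Cyp1a1 had its highest kidney value (716) and Cyp2d4 (1387913_at) its lowest (103). At the step from 10 to 18 months 3.64% of all probe sets at 100 or more on both arrays fell past 2-fold and 1.94% rose. The part of this array in the values was not tested. Members lower at each later age in kidney numbered 1 of 19 (Cyp4a8, 1368607_at), against 2.65%, and those higher at each later age 0 of 19, against 1.88%. At 24 months 11 of 19 were below their 4-month value, against 49.8% of all probe sets.

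In hypothalamus the 10-month array was the highest of the 4 for 16 of the 31 members called higher in liver, against 20.8% of all probe sets. Cyp2t1, Cyp4b1 and Cyp4f6, also called in liver, were lowest on it, at 40.9, 256 and 206. From 4 to 10 months 3 of 16 members rose past 2-fold, against 3.69% of all probe sets in either direction, from 10 to 18 months 1 of 15 fell, against 5.89%, and from 18 to 24 months 0 of 14 passed, against 4.50%. Cyp2c7 read 175, 810, 104 and 123, Cyp2c13 read 103, 628, 86.5 and 49.6, and Cyp2e1 read 130, 280, 97.6 and 107. Cyp2c6v1, which was under 100 at the other ages, read 26.4, 561, 8.73 and 16.1, and Cyp3a2 read 4.19, 124, 5.06 and 4.28. The 10-month array was the highest of the 4 for 19 of 41 members, against 20.8% of all probe sets. It was also the highest for 19 of the 28 hepatocyte markers. Albumin (Alb) read 1371, 9580, 393 and 376, haptoglobin (Hp) 522, 1729, 170 and 38.1, while Tat, Otc and Cps1 read 7.38, 7.94 and 98.0 at 10 months. The summed signal of the hepatocyte list was 32937 on that array and 15156 to 16660 on the other 3, and Itih3 alone read 10954 to 11913 on the 4 arrays. On liver arrays the sum was 679509 to 753916. The part of these markers in the P450 values was not tested.

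**Figure D5:**
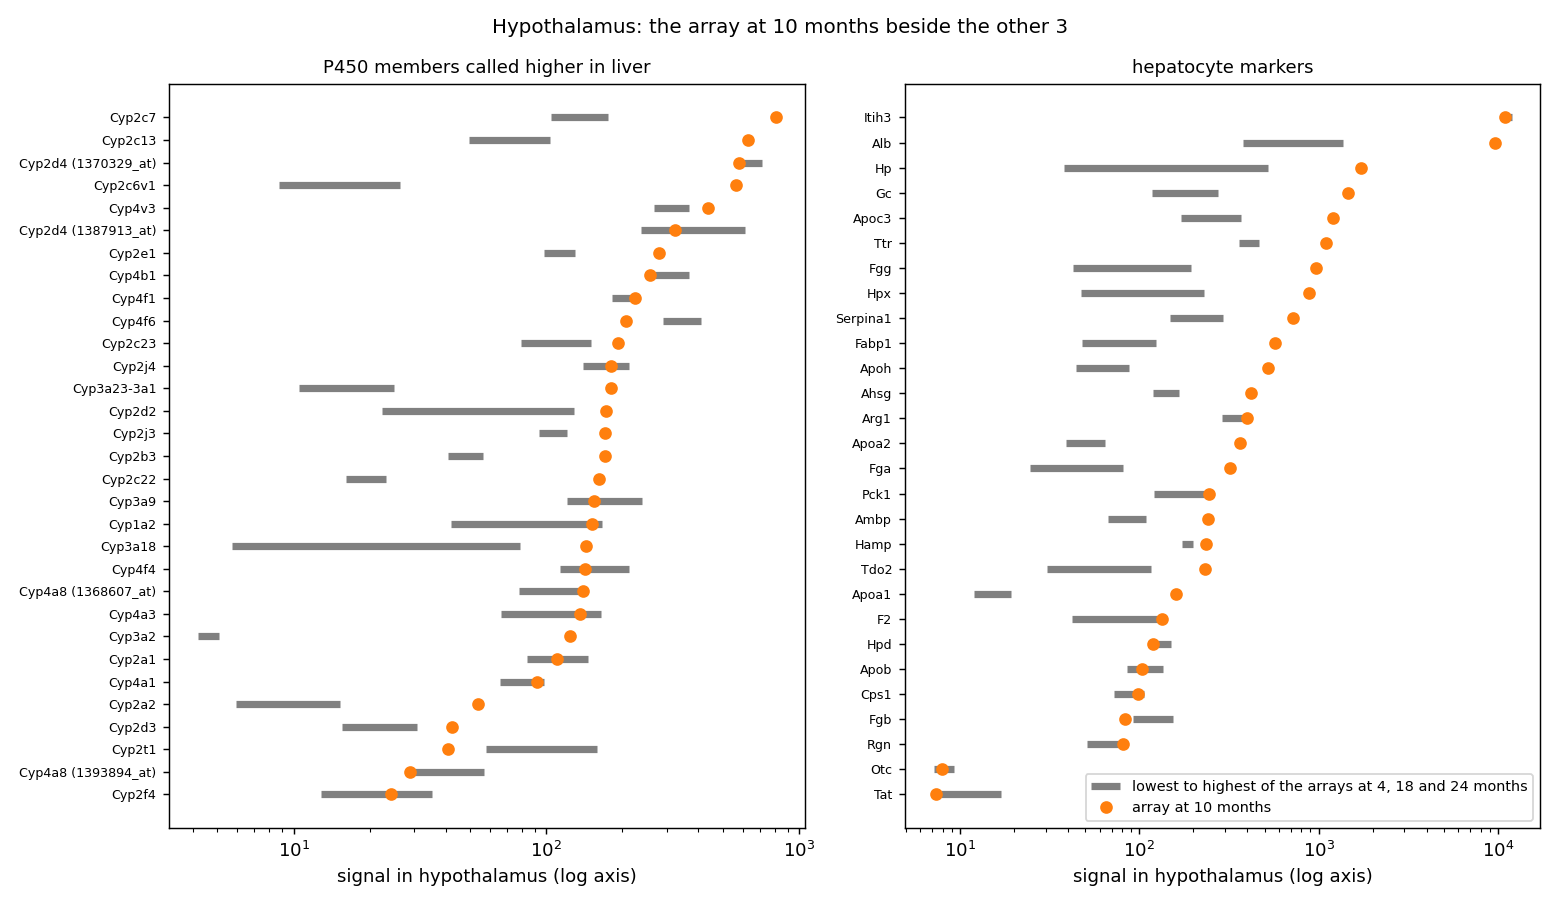
Signals in hypothalamus on a log axis, for the members called higher in liver (left) and the hepatocyte markers (right). Points are the 10-month array and grey bars run from the lowest to the highest of the other 3 arrays. The points of Cyp2c7 (810), Cyp2c13 (628) and Cyp2c6v1 (561) lie right of their bars, as do those of Alb (9580) and Hp (1729).

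In pituitary 0 of 18, 0 of 20 and 0 of 18 members passed 2-fold in the 3 steps, against 2.60%, 1.38% and 1.35% of all probe sets. In spleen lymphocyte 0 of 18, 0 of 17 and 1 of 14 passed, against 4.27%, 2.72% and 2.48%. The 1 was Cyp4a3, from 105 to 219 between 18 and 24 months.

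Bone had more steps, for members and for all probe sets. From 4 to 10 months 3 of 8 members fell past 2-fold, against 9.48% of all probe sets in either direction, from 10 to 18 months 4 of 12 rose, against 9.72%, and from 18 to 24 months 3 of 15 fell, against 8.16%. The first step held Cyp1b1, from 1177 to 380, Cyp4f6, from 299 to 144, and Cyp2d4 (1370329_at), from 322 to 161. The bone markers also differed at that step, with Bglap at 21439 and 11407 and Ibsp at 10022 and 5550, and all 9 at 100 or more on each array. The later steps held Cyp2e1, Cyp4a1, Cyp2j4 and Cyp4f6 upward and Cyp4a1, Cyp2j4 and Cyp3a9 downward, with Cyp2j4 reading 195, 250, 579 and 240. The 18-month bone array was the highest of the 4 for 23 of 41 members and for 43.1% of all probe sets. Over the 4 non-hepatic, non-renal tissues 15 steps passed in all, of which 4 use neither the 10-month hypothalamus nor the 18-month bone array.

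The genes that serve or control P450 enzymes were described from 4 lists. Of the P450 partners, which deliver electrons or make and break down heme, 10 of 11 genes were measured. Of these, 5 were called higher in liver and 3 in kidney, against 8.63% and 9.04% of all probe sets. Por, the gene of P450 reductase, was called in neither organ, with differences of -0.34 in liver and 0.15 in kidney. The probe set used for it read 176, 192, 140 and 240 in liver and 332, 330, 203 and 273 in kidney. These values are near the array medians of 213 to 309, and how well the probe set follows the transcript was not tested. Alas1, the first enzyme of heme synthesis, read 3120, 1220, 1117 and 1194 in liver, highest at 4 months, a log2 step of -1.35. At that step 1 of 10 partners fell past 2-fold and 1 rose, Blvra from 116 to 261, against 3.05% of all probe sets in either direction. Hmox1, which breaks heme down, read 363, 436, 567 and 781 in liver, higher at each age. In kidney 1 of 10 partners passed 2-fold at the first step, Hmox1 from 113 to 234, against 1.40% of all probe sets. At the second step 1 of 10 passed, Cyb5b, a cytochrome b5, from 1549 to 650, against 5.59%. That step uses the 18-month kidney array described above, whose part in it was not tested.

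Of the receptors and factors of P450 genes, 31 of 35 were measured, 11 were called higher in liver and 5 in kidney, against the same 8.63% and 9.04%. Nr0b2, a repressor induced by bile acids, read 1388, 363, 361 and 369 in liver. Onecut1, a hepatocyte factor, read 563, 1422, 1507 and 1451. From 4 to 10 months in liver 1 of 21 factors rose past 2-fold, Onecut1, and 1 fell, Nr0b2. The share of all probe sets at 100 or more on both arrays was 3.05% in either direction. At the last liver step 3 of 23 factors rose past 2-fold and 0 fell, against 3.88% in either direction of all probe sets at 100 or more on both arrays. Stat5b, which carries the growth hormone signal, read 160, 161, 138 and 316 in liver, Arnt, the partner of the dioxin receptor, 31.5, 87.9, 125 and 285, and Rxrb 157, 35.0, 177 and 360.

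Of the phase 2 enzymes and other drug oxidases, which conjugate or further oxidise P450 products, 54 of 71 were measured, 43 were called higher in liver and 28 in kidney, again against 8.63% and 9.04%. In liver 3 of 45 rose past 2-fold from 4 to 10 months, 0 of 45 passed from 10 to 18 months, and 3 of 47 rose from 18 to 24 months, with none falling among genes at 100 or more on both arrays, against 3.05%, 3.19% and 3.88% in either direction of all probe sets that met the same floor. The floor leaves out Ugt2b, a glucuronosyltransferase, which read 12225, 16.9, 10413 and 14704 in liver, a single low array at 10 months with log2 steps of -9.49 and 9.26. Sult2a6, a steroid sulfotransferase, read 204, 416, 482 and 1499, and was among those that rose at the first and the last step. Akr1c14, a hydroxysteroid dehydrogenase, read 845, 733, 745 and 1957, and Gstm2, a glutathione transferase, 1953, 2158, 1425 and 4010. Aldh1a1, which oxidises retinal, read 2470, 5276, 8345 and 6812. Of the drug transporters 19 of 25 were measured, 11 called higher in liver and 6 in kidney (8.63% and 9.04% of all probe sets), and the liver uptake carrier Slco1b2 read 7044, 3033, 6948 and 4007. In the late minus early comparison 0 genes of each list were called in either organ, and the list medians were between -0.01 and 0.11 in liver and between -0.18 and -0.05 in kidney.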

How the data were processed

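Total RNA of male Sprague Dawley rats, from 6 tissues at 4 ages, was measured on 24 arrays, each with RNA pooled from 10 rats. The deposited values are linear intensities, 1 signal per probe set, which the authors computed with MAS5.0 (version not given in the sources used here) and scaled globally to a common target. The trimmed mean of an array, with 2% left out at each end, ran from 495 to 498. Signals were used as deposited.

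Probe sets were named through the platform's annotation table, and all 38 member genes matched the RefSeq gene table, with 0 symbols changed. The 57 control probe sets were left out. Tissues were compared on log2(signal + 50) with limma 3.58.1 in R 4.3.3 (lmFit and eBayes, two-sided), tissue and age as factors over 24 arrays, with Benjamini-Hochberg adjustment over 15866 probe sets. Late and early ages were compared within an organ on its 4 arrays. With 1 array per tissue and age, the spread in these fits is that between ages, and single steps have no test. A step was counted at 2-fold where both arrays read 100 or more. Quoted log2 steps are of the plain signals. Where a gene of the lists had several probe sets, the one at 100 or more on the most arrays was used.

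The fits were tested on simulated data, where the tissue fits recovered most changes put in and the late against early fits within liver, within kidney and between them recovered none of those tried. Promoter windows came from RefSeq (GRCr8). The members, gene lists, markers and tests were chosen with earlier results of these data known, so a pattern here is no independent support for them. Array values are given for members past a threshold of limma, past 2-fold between ages, measured by several probe sets, or known as the main form of a subfamily. The alternatives tried were other pseudocounts, floors, folds, filters and normalizations, an intensity trend, pooled spread, a slope on age, and leaving out ages, tissues or arrays. Detection calls, adrenal arrays and data of other species were not used here.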

Additional observations from a re-analysis of the deposited data

How the results depend on the processing

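Of 113 alternatives to the counts of members called or past 2-fold, 96 stayed within 1.5 times the count given above. These 96 include every alternative of the age comparisons, where 0 stayed 0, so the total does not measure stability. The counts that moved further were all step counts. The limma counts moved between 29 and 33 for liver, between 10 and 13 for kidney and between 24 and 27 for liver against kidney, and stayed at 0 in each age comparison under each of their alternatives, the leave-one-out fits included, which with so few arrays says little about stability. At single members, the liver call of Cyp2d4 (1387913_at) was lost with a pseudocount of 100 (0.93), without the 4-month arrays (0.92) and without bone (0.84), and that of Cyp4b1 with a pseudocount of 100 (0.99). The liver against kidney call of the same Cyp2d4 probe set was lost under 4 alternatives. Calls were gained for Cyp4f6 (7 alternatives) and Cyp2f4 (5) in kidney, Cyp4v3 (1370889_at; 5) in liver, Cyp2t1 (4) in liver against kidney, and Cyp2b12 (1 each) in liver and in liver against kidney.

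Step counts depended on the limits. In liver the 4 steps became 12 at 1.5-fold, 1 at 3-fold and 2 after quantile normalization. In kidney the 2 steps became 14 at 1.5-fold, 1 at 3-fold, 6 with a floor of 50, 1 with a floor of 200, 4 when only 1 array had to reach 100, 1 with 1 probe set per gene, and 0 without the steps that use the 18-month kidney array, also chosen after seeing the data. In the other tissues the 15 steps became 54 at 1.5-fold, 5 at 3-fold, 44 with a floor of 50, 3 with a floor of 200, 29 when only 1 array had to reach 100, 9 after quantile normalization, and 4 without the steps that use the 10-month hypothalamus or the 18-month bone array, an alternative chosen after seeing the data. Leaving out the steps of an array can only lower a count, and in kidney it leaves the step from 4 to 10 months alone. The cause of the shifts beyond the changed limits was not tested. Of 63 values of single steps under other settings, 44 stayed past 2-fold, 19 fell under it and 0 changed direction. No fit with a replicate block was made, since the labels carry no replicate numbers; age, a factor in the tissue fits, already pairs tissues of the same animals.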
